A study of Saccharomyces cerevisiae with 4 samples.

Results

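The genes described here are the 33 that encode the structural subunits of the 26S proteasome of budding yeast, out of 6418 nuclear genes considered in the series. They were chosen by name, 14 for the core particle and 19 for the regulatory particle, and placed by their R64 coordinates. Every one could be measured, as could 6134 of the 6418 genes. The series profiled acetylation of lysine 16 on histone H4 (H4K16ac) by chromatin immunoprecipitation and sequencing in Saccharomyces cerevisiae. Cells labelled nhp6ab, a genotype named after the paralogous genes NHP6A and NHP6B, were set against cells labelled WT. NHP6A and NHP6B encode small HMGB-type proteins that bend DNA and work with the histone chaperone FACT. Cells of both genotypes were grown exponentially in YPD, a rich glucose medium, to 0.5 OD per ml, fixed with 1% formaldehyde for 20 min and quenched with 330 mM glycine for 5 min. The labels give no strain background and do not say how the NHP6 genes were altered. They name 4 libraries, 2 per genotype, but the deposited values are 1 table per genotype with a single count for each nucleosome. The spread between replicates is therefore unknown, no test between genotypes was possible, and every interval below covers counting error only.

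The proteasome degrades proteins marked with ubiquitin. Its core particle is a barrel of stacked rings, in which outer alpha subunits gate the entry and inner beta subunits hold the protease sites. The regulatory particle caps the barrel: its base unfolds substrates with a ring of ATPases, and its lid removes the ubiquitin chain. In budding yeast most of these genes share an activator, the zinc finger factor Rpn4, itself a short-lived proteasome substrate. H4K16ac is a mark of open chromatin that is removed at silenced loci by the deacetylase Sir2.

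The nhp6ab table listed 57674 nucleosomes with 20293261 counts and a median of 354 counts, and the WT table listed 60557 with 26526939 counts and a median of 442. A nucleosome at the median had a counting error of 5.31% in nhp6ab and 4.76% in WT. Over the open reading frames (ORFs) of the genes that name the mutant, 260 counts lay in nhp6ab and 592 in WT for NHP6A, and 564 in nhp6ab and 882 in WT for NHP6B. Both ORFs thus still carried counts in the table labelled nhp6ab, and that name is used below only as the label gives it. No input library was used here, so acetylation per nucleosome and recovery of the nucleosome cannot be told apart. The proteasome genes held 279 listed nucleosomes in nhp6ab and 293 in WT, which was 0.431% of the counts in nhp6ab and 0.459% in WT.

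The level of a gene is given as the mean count per listed nucleosome divided by the median count of its table, so that 1 is a typical nucleosome. Over the 500 bp upstream of the start and the ORF together, the median level of the proteasome genes was 0.89 in nhp6ab and 0.99 in WT, against 1.02 in nhp6ab and 1.03 in WT for protein-coding genes. The particles differed in level within both tables. The median was 1.01 in nhp6ab and 1.07 in WT for the core, 0.88 in nhp6ab and 0.91 in WT for the base, and 0.80 in nhp6ab and 0.81 in WT for the lid. The highest WT levels were found for RPN10, PRE3 and RPN11. RPN10, a ubiquitin receptor of the base, stood at 1.10 in nhp6ab and 1.29 in WT. PRE3, the beta subunit with the caspase-like site, stood at 1.19 in nhp6ab and 1.29 in WT. RPN11, the deubiquitinating enzyme of the lid, stood at 1.22 in nhp6ab and 1.245 in WT. All 3 levels were therefore lower in nhp6ab, RPN11 by the least. The log2 ratios given further below are scaled to the table totals and not to the medians. On that scale the mean per listed nucleosome stood at −0.16 for RPN10, −0.05 for PRE3 and 0.03 for RPN11. The lowest WT levels belonged to RPN5, SEM1 and RPN2. RPN5, a scaffold subunit of the lid, had 0.63 in both tables. SEM1, the smallest subunit of the lid, had 0.99 in nhp6ab and 0.63 in WT, and RPN2, the scaffold of the base that carries RPN13, had 0.69 in nhp6ab and 0.67 in WT. SEM1 rests on 2 listed nucleosomes in nhp6ab and 3 in WT, the fewest of the 33 genes.

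**Figure D1:**
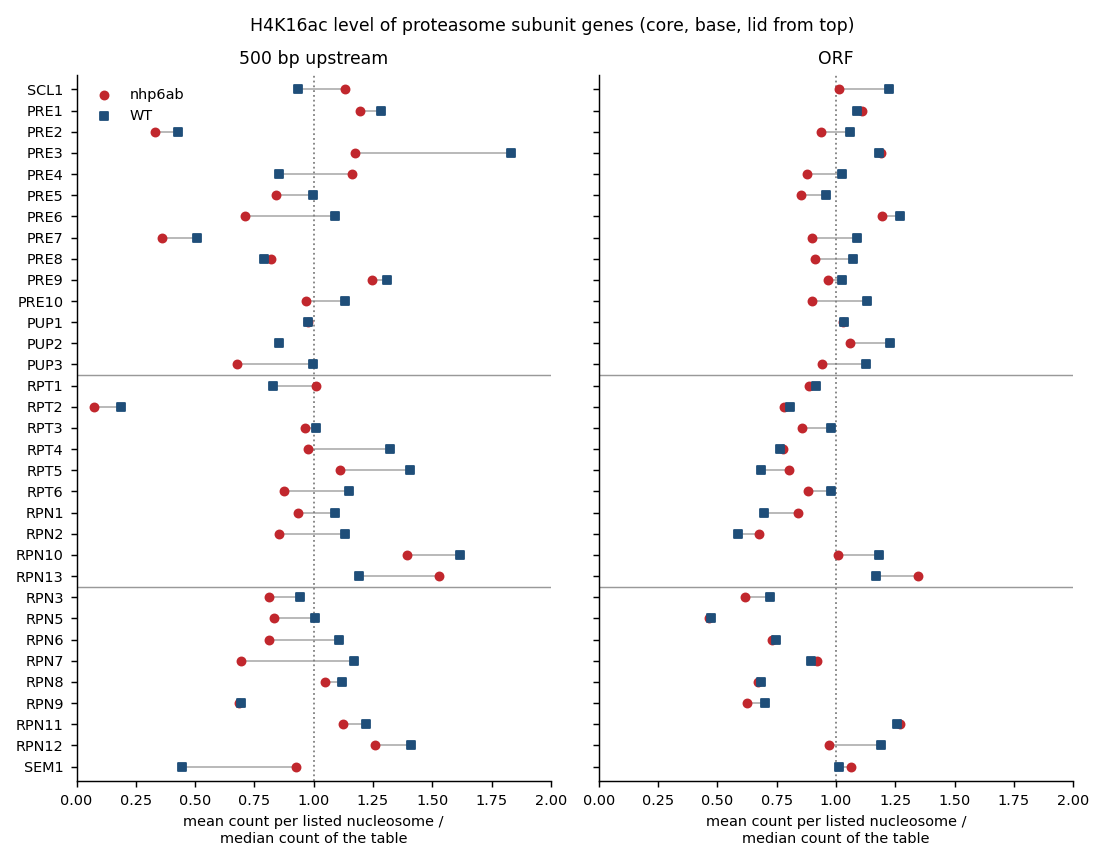
Level of H4K16ac at each of the 33 proteasome genes, as mean count per listed nucleosome over the median count of the table (x axis), in the 500 bp upstream (left panel) and in the ORF (right panel), with nhp6ab as red circles and WT as blue squares and with core, base and lid separated by lines. Most base and lid genes lie left of 1 over the ORF, where the base ATPases run from 0.78 to 0.89 in nhp6ab and from 0.68 to 0.98 in WT. PUP2 has no nhp6ab point upstream because no nucleosome was listed there.

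The regulatory particle genes were higher upstream than over the ORF in most cases. The upstream level was above the ORF level for 14 of 19 regulatory genes in nhp6ab and for 14 of 19 in WT, not the same 14. Some upstream nucleosomes lay inside a neighbouring ORF, as did all those of RPN3, RPN9 and RPN10 in both tables. The count was not repeated without such nucleosomes. Among protein-coding genes the upstream level was below the ORF level for 66.2% in nhp6ab and 59.5% in WT. The core genes showed no such order, with the upstream level below the ORF level for 8 of 13 in each table. RPN5 of the lid was among the genes with the higher upstream level, with 0.83 in nhp6ab and 1.01 in WT and an ORF level of 0.46 in nhp6ab and 0.47 in WT. RPT2, a base ATPase, was the reverse, with an upstream level of 0.07 in nhp6ab and 0.19 in WT and an ORF level of 0.78 in nhp6ab and 0.81 in WT.

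Along the gene, in bins of 100 bp, the largest difference between the tables in level, a mean per listed nucleosome, lay at the start of the ORF. For nucleosomes with a midpoint in the first 100 bp of the ORF, the level over the proteasome genes was 1.05 in nhp6ab and 1.34 in WT, while over all protein-coding genes it was 1.09 in nhp6ab and 1.13 in WT. By level, the WT proteasome genes thus had a peak at the start that was higher than that of protein-coding genes, and the nhp6ab proteasome genes did not. By amount the tables were close there. The summed count of this bin, scaled to the table total and the gene number, was 1169 in nhp6ab (21 listed) and 1217 in WT (18 listed). From 100 to 0 bp upstream the same sum was 509 in nhp6ab (9 listed) and 896 in WT (15 listed). For protein-coding genes that upstream sum was 573 in nhp6ab and 704 in WT. The bins on either side of the start do not hold the same nucleosomes in both tables. At RPN2, PRE1, RPN6 and RPT4 the nucleosome on the start had its midpoint inside the ORF in nhp6ab and upstream in WT. At PRE3 and PRE4 the order was the reverse. From 100 to 200 bp inside the ORF the level was 1.07 in nhp6ab and 1.248 in WT. From 300 to 200 bp upstream it was 0.98 in nhp6ab and 1.19 in WT. The dip from 200 to 100 bp upstream of the start was present in both tables, at 0.61 in nhp6ab and 0.70 in WT. Both particles showed the difference in level in the first 100 bp, with 1.09 in nhp6ab and 1.40 in WT for the core and 1.03 in nhp6ab and 1.30 in WT for the regulatory particle. Over the first 500 bp of the ORF the median log2 ratio of summed counts, scaled to the table totals, was −0.19 for the proteasome genes and 0.02 for protein-coding genes. Beyond 500 bp it was 0.09 for the proteasome genes and 0.02 for protein-coding genes.

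**Figure D2:**
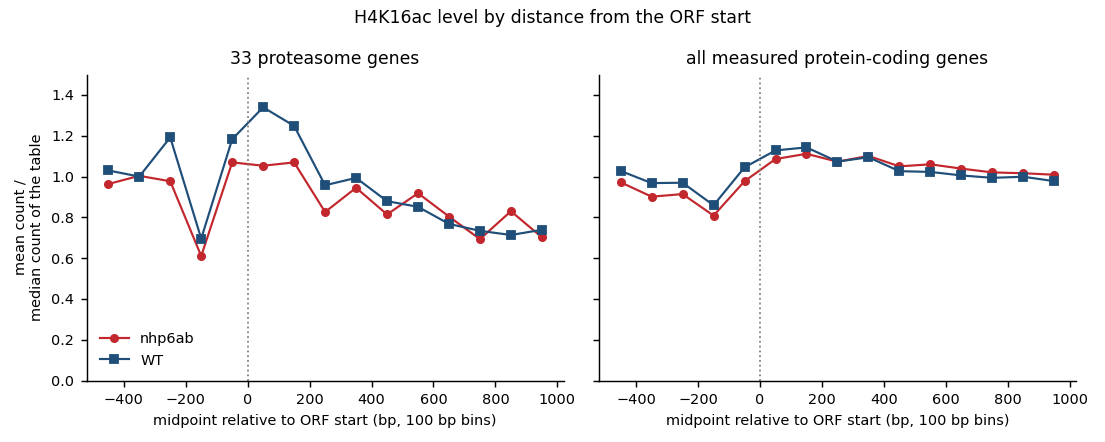
Level of H4K16ac in bins of 100 bp by distance of the nucleosome midpoint from the ORF start (x axis, bp), for the 33 proteasome genes (left) and all measured protein-coding genes (right), with nhp6ab as red circles and WT as blue squares. In the bin from 0 to 100 bp the proteasome genes stand at 1.05 in nhp6ab and 1.34 in WT, while the protein-coding genes stand at 1.09 in nhp6ab and 1.13 in WT.

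A sum over a gene also moves with the number of nucleosomes listed, so single nucleosomes were paired between the tables when their midpoints lay within 50 bp of each other. The pair nearest to the ORF start with its WT midpoint in the first 200 bp of the ORF is called the start nucleosome here. It existed for 32 of the 33 genes, with WT midpoints from 1 bp (PRE3) to 183 bp (SEM1) inside the ORF. Pairs with a WT midpoint upstream were left out even where they lay nearer, as at RPT4 (1 bp upstream) and RPN2 (18 bp upstream). RPN1 had none, and its nearest pair lay 2 bp upstream. This measure was chosen after the profile along the gene had been seen. The start nucleosome had a median level of 1.04 in nhp6ab and 1.23 in WT over the proteasome genes, against 1.10 in nhp6ab and 1.15 in WT over 5125 protein-coding genes. Its log2 ratio of nhp6ab over WT was below 0 for 28 of 32 proteasome genes (87.5%), with a median of −0.21. Among protein-coding genes 50% were below 0 and the median was near 0. A ratio was called where it was at least 0.32 in size on the log2 scale, and its counting interval excluded 0. By that rule 9 of the 32 (28.1%) were called lower, where 11.1% of protein-coding genes were, and 2 were called higher, where 12.1% were. The proteasome genes started from a higher median level in WT, though the ranges overlapped. Their quartiles were 1.06 and 1.45, against 0.97 and 1.31 for protein-coding genes. Among the 2734 protein-coding genes whose WT start nucleosome lay between the quartiles of the proteasome genes' WT levels (1.06 to 1.45), 52.0% were below 0, 10.3% were called lower and the median was −0.01. Proteasome genes outside that range, such as RPN12 at 1.98, are not matched in level by this set.

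Among the core genes, 13 of 14 start nucleosomes had a ratio below 0, with a median of −0.14, and 2 were called lower. PRE7, a beta ring subunit without a protease site, had 311 counts in nhp6ab and 638 in WT at its start nucleosome (chromosome II, 141192 to 141346 in nhp6ab), a log2 ratio of −0.65 (95% interval −0.85 to −0.45) and the lowest of all 32. PRE3 had 369 counts in nhp6ab and 626 in WT (−0.38, −0.57 to −0.19). Both counting intervals excluded 0. The exception was PRE8, an alpha ring subunit, which was called higher with 355 counts in nhp6ab and 366 in WT (0.34, 0.13 to 0.56). The PRE8 nucleosome was listed 160 bp wide in nhp6ab and 144 bp wide in WT, and per listed base pair its ratio was 0.19. The next pair of PRE8, 163 bp inside the ORF, met the call for lower. It had 391 counts in nhp6ab and 641 in WT (−0.33, −0.51 to −0.14), so the direction at PRE8 depends on which pair is taken.

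The regulatory particle had a lower median of −0.27, with 15 of 18 start nucleosomes below 0 and 7 called lower. In the lid these were RPN3, RPN12 and RPN9, all scaffold subunits. RPN3 had 369 counts in nhp6ab and 684 in WT (−0.50, −0.69 to −0.32). RPN12 had 486 counts in nhp6ab and 877 in WT (−0.47, −0.63 to −0.30), from the highest WT start level of the 32 genes, 1.98, against 1.37 in nhp6ab. RPN9 had 302 counts in nhp6ab and 528 in WT (−0.42, −0.63 to −0.21). All 3 had their midpoint within 20 bp of the start codon in WT and were 160 bp wide in both tables. RPN8, the partner of RPN11 in the lid, was just short of the call, with 264 counts in nhp6ab and 431 in WT (−0.32, −0.55 to −0.10). In the base the ATPase genes RPT2, RPT4 and RPT6 and the ubiquitin receptor gene RPN10 were called lower. RPT4 had 356 counts in nhp6ab and 613 in WT (−0.40, −0.59 to −0.21), RPN10 had 412 in nhp6ab and 687 in WT (−0.35, −0.53 to −0.17), and RPT6 had 364 in nhp6ab and 596 in WT (−0.32, −0.52 to −0.13). The RPT6 nucleosome was listed 150 bp wide in nhp6ab and 160 bp wide in WT, and per listed base pair its ratio was −0.23, short of the call. RPT2 had 253 in nhp6ab and 482 in WT (−0.54, −0.77 to −0.32), but its nucleosome was listed 120 bp wide in nhp6ab and 160 bp wide in WT. A neighbouring nucleosome of 281 counts was listed 156 bp into RPT2 in nhp6ab and not in WT, and per listed base pair the RPT2 ratio was −0.13.

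RPN13, the other ubiquitin receptor of the base, went the other way, with 502 counts in nhp6ab and 458 in WT at its start nucleosome (0.52, 0.33 to 0.70). It is the only proteasome subunit gene on chromosome XII, where the 517 measured genes had a median log2 ratio of 0.37 over the gene. How much of the RPN13 value belongs to the chromosome was not tested. Without it, 28 of 31 start nucleosomes were below 0 with a median of −0.21, against 54.2% of protein-coding genes outside chromosome XII with a median of −0.03. The remaining genes above 0 were RPT1, a base ATPase gene, at 0.02 and SEM1 at 0.14, both with intervals that included 0.

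**Figure D3:**
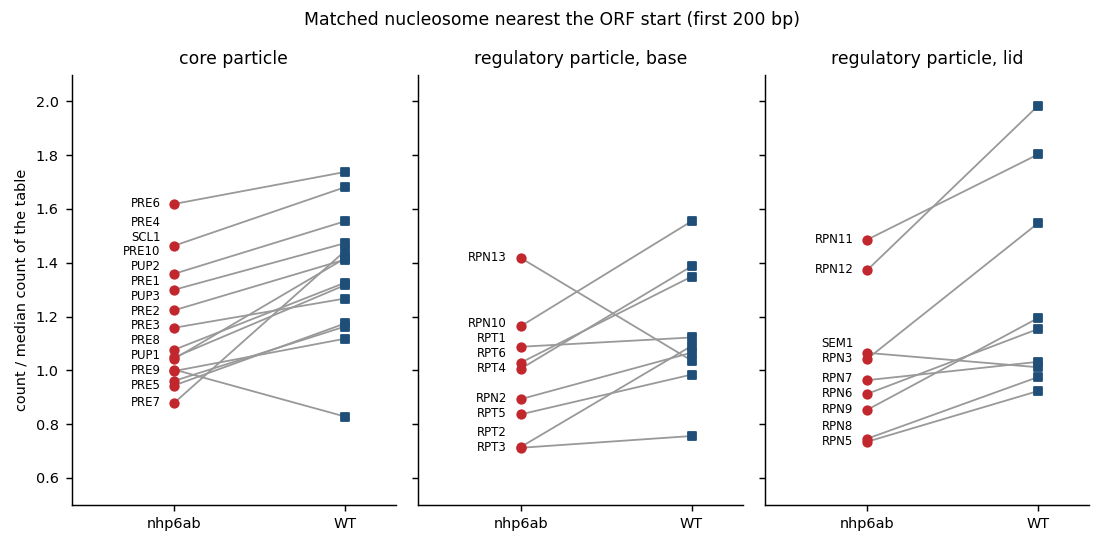
Start nucleosome of 32 proteasome genes, the matched nucleosome nearest to the ORF start in its first 200 bp, as its count over the median count of the table (y axis) in nhp6ab (red circles, left) and WT (blue squares, right), with 1 line per gene and 1 panel each for core, base and lid. Of the 32 lines 29 climb towards WT, as for PRE7 with 0.88 in nhp6ab and 1.44 in WT. On this scale 60.6% of protein-coding genes had the higher level in WT. RPN13 and PRE8 are the exceptions that were called higher in nhp6ab.

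The 260 matched nucleosomes of the proteasome genes differed by position. Upstream of the start, the median log2 ratio over 58 pairs was −0.15, against −0.05 for protein-coding genes. There 16 were called lower, where 18.9% of pairs of protein-coding genes were, and 4 higher, where 10.6% were. In the first 200 bp of the ORF, the median over 45 pairs was −0.23, with 12 called lower (10.7% of pairs of protein-coding genes) and 2 higher (11.8%). From 200 to 500 bp, it was −0.04 over 51 pairs, with 9 lower (7.54%) and 5 higher (16.3%), where protein-coding genes had a median of 0.06. Beyond 500 bp, it was 0.10 over 106 pairs, with 10 lower (8.08%) and 27 higher (19.7%), where protein-coding genes had 0.07. The sign of the median thus differed between the start and the far part of these genes. The far part is mostly base and lid, since the core ORFs are short: the median beyond 500 bp was 0.17 over 60 pairs of the base and −0.01 over 26 pairs of the lid. Genes did not count equally there, since long ORFs of the base gave many of its pairs. RPN1 (2982 bp) had 16 nucleosomes listed beyond 500 bp in each table, and RPN2 (2838 bp) had 14 in nhp6ab and 15 in WT. The median of the pairs without RPN1 and RPN2 was not computed.

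Over all positions, 38 of the 260 pairs were called higher, where 17.1% of all 51169 pairs in the tables were, and 47 lower, where 10.5% were. At 2-fold, 1 pair was higher, where 0.321% were, and 1 lower, where 0.758% were. The lowest single nucleosome lay upstream of RPT2 (chromosome IV, 437718 to 437878 in nhp6ab), with 26 counts in nhp6ab and 83 in WT, a log2 ratio of −1.29 (−1.98 to −0.64). The next lowest both lay upstream of PUP3, a beta ring subunit. They had 294 counts in nhp6ab and 660 in WT (−0.78, −0.98 to −0.58), and 150 in nhp6ab and 322 in WT (−0.72, −1.005 to −0.43). The 3 highest lay inside the ORFs of RPN1, RPT5 and RPN9. RPN1, the large scaffold of the base that docks shuttle factors, had 341 counts in nhp6ab and 218 in WT at chromosome VIII, 163863 to 164023 in nhp6ab (1.03, 0.78 to 1.28). RPT5, a base ATPase, had 365 in nhp6ab and 239 in WT (0.997, 0.76 to 1.24), and RPN9 had 333 in nhp6ab and 240 in WT near the end of its ORF (0.86, 0.62 to 1.10). These 3 nucleosomes were listed wider in nhp6ab, and per listed base pair their ratios were 0.62 for RPN1, 0.82 for RPT5 and 0.44 for RPN9.

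**Figure D4:**
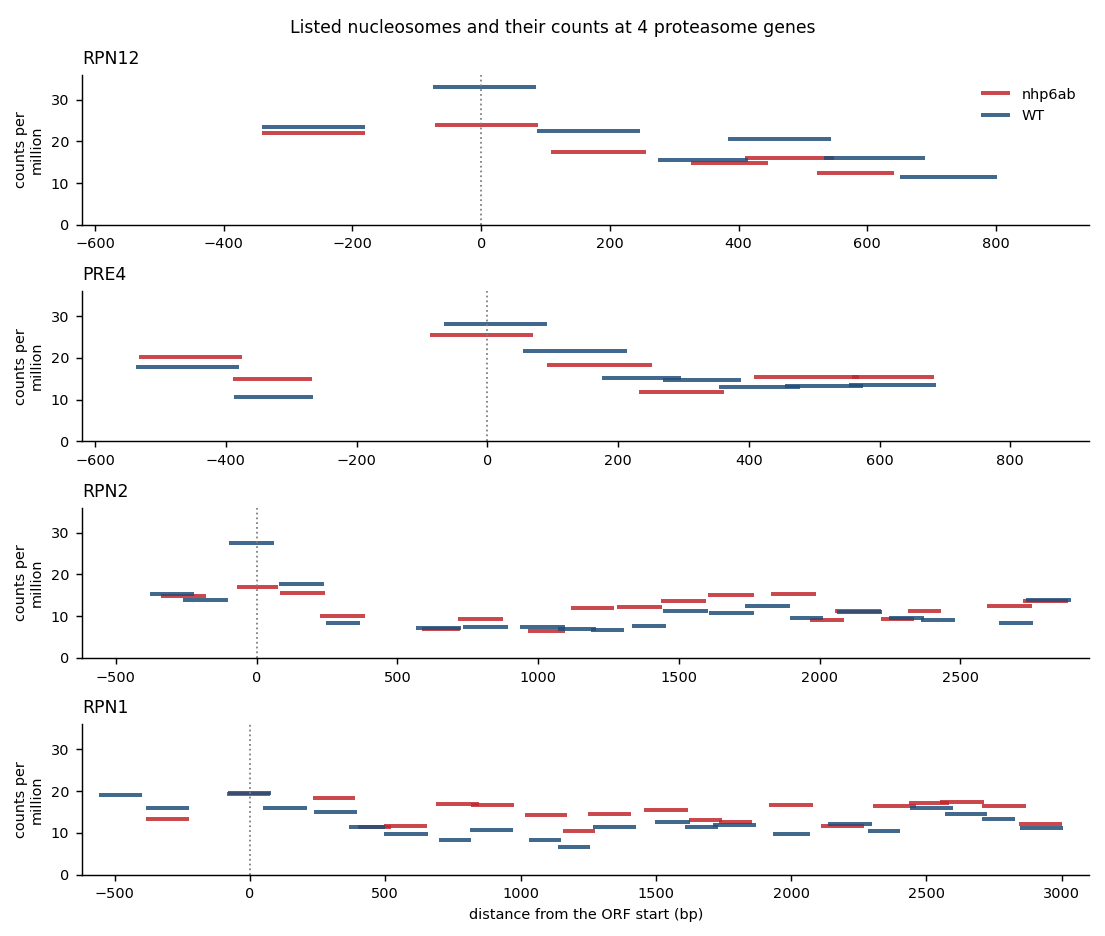
Listed nucleosomes of RPN12, PRE4, RPN2 and RPN1 as bars from start to end by distance from the ORF start (x axis, bp; dotted line at the start) at the height of their count scaled to the table total (y axis), nhp6ab in red and WT in blue. The start nucleosome of RPN12 stands lower in nhp6ab, with 486 counts in nhp6ab and 877 in WT. At PRE4 and RPN2 the nucleosome on the start has its midpoint on opposite sides of the line in the 2 tables.

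Summed over the 500 bp upstream and the ORF, the proteasome genes had a slightly lower median than all measured genes. Their median log2 ratio was −0.10 with a range of −0.42 to 0.18, while the median of all measured genes was −0.02. With nucleosomes that overlap another left out, the median was 0.014 for the proteasome genes and −0.05 for all genes. The ratio was below 0 for 23 genes and above 0 for 10. Its counting interval excluded 0 on the low side for 18 genes, where 40.3% of all measured genes did so, and on the high side for 4, where 31.1% did. By the call at 0.32, 4 genes were lower, where 11.2% of genes were, and 0 higher, where 8.66% were. At 2-fold 0 were called in either direction, where 1.08% of genes were lower and 0.326% higher.

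The genes called lower were RPN12 and 3 of the core. RPN12 had 2166 counts in nhp6ab and 3776 in WT, a log2 ratio of −0.42 (−0.49 to −0.34), with 6 listed nucleosomes in nhp6ab and 7 in WT. PRE5, an alpha ring subunit, had 1805 counts in nhp6ab and 2985 in WT (−0.34, −0.42 to −0.25), with 6 listed in nhp6ab and 7 in WT. PUP1, the beta subunit with the trypsin-like site, had 2166 counts in nhp6ab and 3580 in WT (−0.34, −0.42 to −0.26), with 6 listed in nhp6ab and 8 in WT. PUP3 had 2290 counts in nhp6ab and 3753 in WT (−0.33, −0.40 to −0.25), with 8 listed in each. The mean per listed nucleosome does not grow with how many were listed, though it still depends on which were, and it separated these 4. It gave −0.33 for PUP3, −0.19 for RPN12, −0.12 for PRE5 and 0.08 for PUP1. By that mean PUP3 was the single gene lower by at least 0.32, where 5% of genes were, and RPN13 (0.35) and SEM1 (0.72) were higher, where 9.03% were. Upstream of SEM1, 1 nucleosome at a level of 0.92 was listed in nhp6ab and 2 with a mean level of 0.44 in WT. The sum of SEM1 gave a ratio of 0.13. PUP3 and PRE7 were the 2 lowest by the mean per listed nucleosome, with PRE7 at −0.26 from 1973 counts in nhp6ab and 3078 in WT over 8 nucleosomes in each table.

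The highest sums belonged to the base and to SEM1. RPT5 had 3448 counts in nhp6ab and 3965 in WT (0.18, 0.12 to 0.25), and RPT2 had 2509 in nhp6ab and 2937 in WT (0.16, 0.08 to 0.24). SEM1 had 704 in nhp6ab and 840 in WT (0.13, −0.02 to 0.28), an interval that includes 0. RPN1 had 5999 in nhp6ab and 7296 in WT (0.10, 0.06 to 0.15). None of these reached 0.32. RPN13 had 2035 counts in nhp6ab and 2603 in WT, a sum near the table ratio (0.03, −0.05 to 0.12), with 4 listed nucleosomes in nhp6ab and 5 in WT.

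The core particle had a lower median than the regulatory particle, −0.19 against −0.06, though with nucleosomes that overlap another left out the order turned, to 0.22 against −0.02. The gap was narrower with matched nucleosomes only (−0.14 against −0.11), by the mean (−0.067 against 0.007) and per listed base pair (−0.028 against 0.005). It was wider when an overlap of at least 1 bp sufficed (−0.20 against 0.02). By the sums over 500 bp upstream plus ORF, 12 of the 14 core genes lay below 0. Their median was −0.13 for the 7 alpha genes and −0.26 for the 7 beta genes. The alpha genes SCL1 (−0.03), PRE6 (−0.08), PRE8 (−0.13), PRE9 (−0.24) and PUP2 (−0.28) lay between PRE5 and PRE10, whose 3623 counts in nhp6ab and 4507 in WT gave the highest ratio of the core (0.07, 0.01 to 0.13). Of the beta genes, PRE1 had 2809 counts in nhp6ab and 3632 in WT (0.02, −0.06 to 0.09), and PRE3 (−0.05), PRE2 (−0.13), which carries the chymotrypsin-like site, PRE7 (−0.26) and PRE4 (−0.28) were lower. Protein-coding genes with ORFs as short as those of the core had a median of −0.05, and those between the quartiles of the regulatory ORF lengths had −0.02.

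In the base the median was 0.03, with the ATPase genes at 0.04. Besides RPT5 and RPT2, RPT4 and RPT3 both stood at 0.04, RPT6 at −0.13 and RPT1 at −0.15. The non-ATPase genes ran from RPN1 at the top through RPN13 and RPN2 (−0.05) to RPN10 (−0.16). In the lid the median was −0.10, with RPN7 at 0.00, RPN6 at −0.06, RPN9 at −0.07, RPN5 at −0.10, RPN11 at −0.14, RPN3 at −0.16 and RPN8 at −0.18 between SEM1 and RPN12. RPN8 had 1692 counts in nhp6ab and 2498 in WT (−0.27 to −0.09). RPN12 and RPN8 were thus the lowest of the regulatory particle, and RPT5 and RPT2 the highest.

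**Figure D5:**
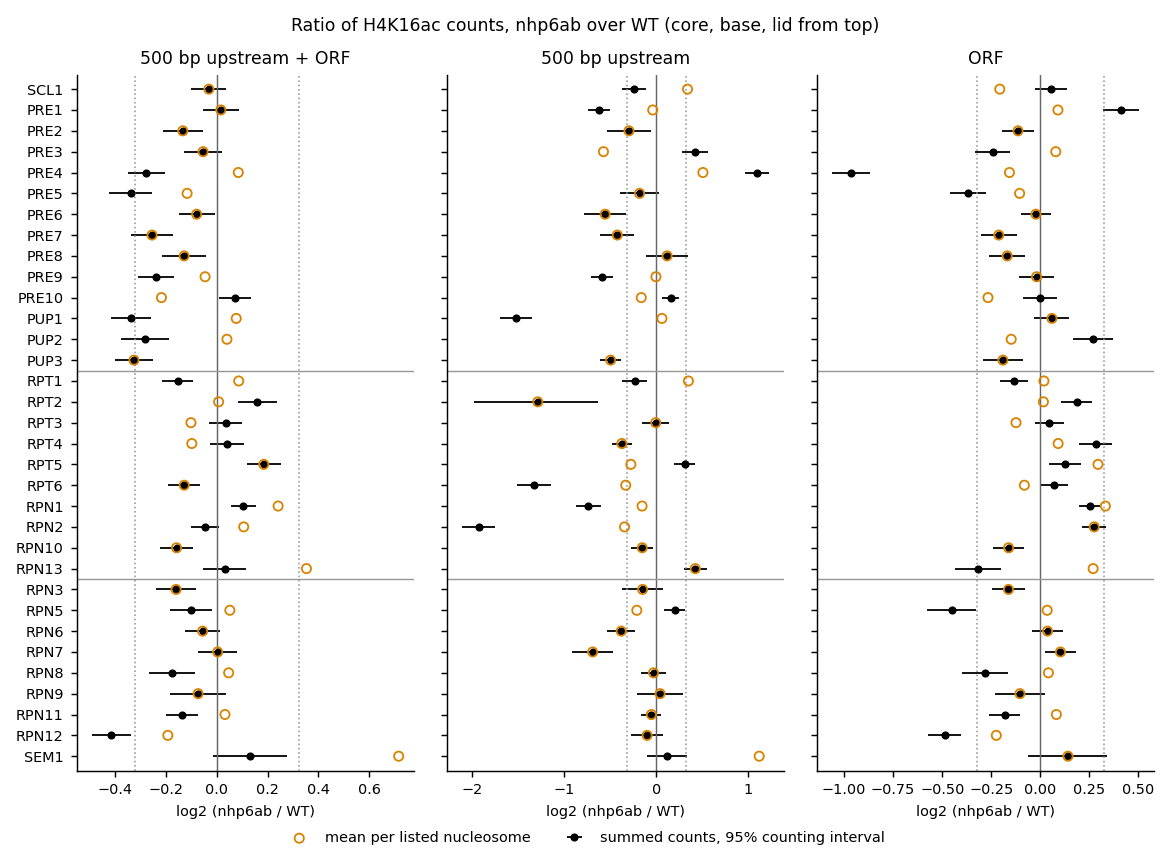
Log2 ratio of nhp6ab over WT for the 33 proteasome genes over 500 bp upstream plus ORF (left), upstream alone (middle) and ORF alone (right), with summed counts and their 95% counting interval as black points and bars and the mean per listed nucleosome as open orange circles, and dotted lines at 0.32 on either side of 0. In the left panel all black points lie between −0.42 and 0.18, and SEM1 has the largest gap between its sum (0.13) and its mean (0.72).

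Upstream sums were spread more widely than ORF sums. Over the 500 bp upstream of 32 genes the median log2 ratio was −0.21, against −0.09 for all genes, with 64 nucleosomes listed in nhp6ab and 72 in WT. At 0.32, 13 genes were called lower, where 30.5% of genes were, and 3 higher, where 14.4% were. At 2-fold 4 were lower, where 7.75% were, and 1 higher, where 2% were. Calls were thus common upstream among all genes as well. By the mean per listed nucleosome 10 were lower by at least 0.32, where 17.4% were, and 5 higher, where 10.4% were.

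Of the 4 genes lower at 2-fold, 3 had fewer upstream nucleosomes listed in nhp6ab than in WT. The exception was RPT2, whose single upstream nucleosome in each table is the one given above (−1.29). RPN2 had 302 counts from 1 nucleosome in nhp6ab and 1503 from 3 in WT (−1.93, −2.11 to −1.75). Its nucleosome on the start had a midpoint 18 bp upstream with 731 counts in WT, and 3 bp inside the ORF with 344 counts in nhp6ab. PUP1 had 345 counts from 1 nucleosome in nhp6ab and 1295 from 3 in WT (−1.52, −1.70 to −1.35), and RPT6 had 309 from 1 in nhp6ab and 1016 from 2 in WT (−1.33, −1.52 to −1.15). The means per listed nucleosome were −0.34 for RPN2, 0.06 for PUP1 and −0.33 for RPT6. For PUP2, an alpha ring subunit, 2 upstream nucleosomes with 754 counts were listed in WT and none in nhp6ab. The absence of a listing gives no count, so PUP2 has no upstream ratio.

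The highest upstream sum was that of PRE4, a beta ring subunit without a protease site, with 1233 counts from 3 nucleosomes in nhp6ab and 755 from 2 in WT (1.09, 0.96 to 1.23). The PRE4 nucleosome on the start had a midpoint 9 bp upstream with 518 counts in nhp6ab, and 13 bp inside the ORF with 743 counts in WT. PRE4 was also the lowest over the ORF, with 1241 counts from 4 nucleosomes in nhp6ab and 3166 from 7 in WT (−0.96, −1.06 to −0.87). Next to PRE4 upstream came PRE3, with 832 counts from 2 nucleosomes in nhp6ab and 809 from 1 in WT (0.43, 0.29 to 0.57), and RPN13, with 1083 in nhp6ab and 1054 in WT from 2 in each (0.43, 0.30 to 0.55). The mean per listed nucleosome of PRE3 had the other sign, −0.57.

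Over the ORF the proteasome genes had a median log2 ratio of −0.02, against 0.01 for all genes, with 215 nucleosomes listed in nhp6ab and 221 in WT. At 0.32, 4 were called lower, where 11% of genes were, and 1 higher, where 11.4% were. At 2-fold 0 were called, where 1.17% of genes were lower and 0.544% higher. By the mean per listed nucleosome 0 were lower by at least 0.32, where 5.09% were, and 1 was higher, where 9.73% were. That gene was RPN1, with an ORF level of 0.84 in nhp6ab and 0.70 in WT. The genes called lower by sum were PRE4, RPN12, RPN5 and PRE5. RPN12 had 1720 ORF counts in nhp6ab and 3152 in WT (−0.49, −0.57 to −0.40), and RPN5 had 819 in nhp6ab and 1463 in WT (−0.45, −0.58 to −0.33) with 5 listed nucleosomes in nhp6ab and 7 in WT. The gene called higher was PRE1, with 1962 counts from 5 nucleosomes in nhp6ab and 1928 from 4 in WT (0.41, 0.32 to 0.50). Next after PRE1 came RPT4, with 2200 counts in nhp6ab and 2363 in WT (0.28, 0.20 to 0.37), and RPN2 (0.27).

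The upstream regions differed in their neighbours. In 21 cases the gene next upstream was divergent and in 12 it was in tandem, with a median gap of 383 bp between the ORFs and a range of 219 to 1822 bp. None of these neighbours was another proteasome subunit gene. At 18 genes an upstream nucleosome of either table lay inside the neighbouring ORF, 23 nucleosomes in nhp6ab and 21 in WT. The longest stretch without a listed nucleosome between 500 bp upstream and 500 bp inside the ORF had a median of 173 bp in nhp6ab and 136 bp in WT. It was longer in nhp6ab at 17 genes and shorter at 15. The largest difference was at PUP2, where the stretch was 489 bp in nhp6ab and 136 bp in WT.

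RPN4, the activator gene, had 1267 counts from 12 nucleosomes in nhp6ab and 1916 from 15 in WT, a log2 ratio of −0.21 (−0.31 to −0.11) that did not reach 0.32. By the mean per listed nucleosome the RPN4 ratio was 0.11. Its level was 0.30 in nhp6ab and 0.29 in WT, below that of each of the 33 subunit genes in both tables.

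Other genes of the pathway, 46 besides RPN4, were taken from lists by function. Together with RPN4 they had a median log2 ratio of −0.05, with 3 of 47 called higher, where 8.66% of all genes were, and 8 lower, where 11.2% were. By the mean per listed nucleosome 4 were higher by at least 0.32, where 9.03% of all genes were, and 2 lower, where 5% were. The 10 assembly chaperone genes had a median of −0.02. IRC25, on chromosome XII, was highest (0.49) and called, followed by HSM3 (0.28), while NAS6 (−0.35) was called lower and POC4 stood at −0.24. The means of IRC25 (0.49) and NAS6 (−0.35) equalled their sums, since each had as many nucleosomes listed in both tables. The 8 genes of proteasome-associated proteins had a median of −0.02 and 2 called lower, the deubiquitinase gene UBP6 (−0.50) with 2268 counts in nhp6ab and 4201 in WT, and CIC1 (−0.49). Their means per listed nucleosome did not reach 0.32, at −0.18 for UBP6 and −0.17 for CIC1. FUB1 (0.10) and BLM10, a core particle activator (0.03), were highest.

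The 8 shuttle and segregase genes had a median of −0.08 and 2 called lower. These were UFD1 (−0.45), a cofactor of the Cdc48 segregase, and RAD23 (−0.36), a shuttle factor that brings ubiquitinated proteins to the proteasome. UFD1 had 7 nucleosomes listed in nhp6ab and 10 in WT, and RAD23 had 8 in nhp6ab and 10 in WT. By the mean UFD1 stood at 0.06 and RAD23 at −0.04. NPL4 (0.30), the partner of UFD1, and SHP1 (0.14) were highest. Of the 20 genes of ubiquitin and its enzymes, with a median of −0.06, 2 were called higher and 3 lower. The polyubiquitin gene UBI4 had 2944 counts in nhp6ab and 2165 in WT (0.83) and lies on chromosome XII, and the ubiquitin fusion gene RPL40B had 1305 in nhp6ab and 1155 in WT (0.56). By the mean UBI4 stood at 0.47, but RPL40B, with 6 nucleosomes listed in nhp6ab and 4 in WT, stood at −0.02. The ubiquitin-conjugating enzyme genes CDC34 (−0.42) and UBC6 (−0.33) and the ligase gene UFD4 (−0.35) were called lower. By the mean CDC34 stood at −0.42, UBC6 at −0.10 and UFD4 at 0.01, so only CDC34 of these 3 still reached 0.32.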

How the data were processed

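H4K16ac ChIP-seq was measured in 4 libraries, 2 labelled nhp6ab and 2 labelled WT. Per the submitters' processing notes FastQC, Bowtie and build R64 were used; no version, nucleosome caller or way of pooling the replicates is given in the sources used here. The authors deposited 1 table per genotype, which lists nucleosomes of 120 to 160 bp with a read count each. Per the file headers these are counts, and as whole numbers with unequal totals they were taken to be raw counts. Of the listed nucleosomes, 40.2% in nhp6ab and 42.3% in WT overlapped the one before, and a read in both could be counted again.

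Nucleosomes were given to a gene by midpoint, and the strand was read from the systematic name of an R64 gene table. Counts were summed and divided by the table total, and log2 ratios of nhp6ab over WT received an exact conditional binomial 95% interval. PCR reads are not independent molecules, so these intervals cover counting error only. A gene needed 100 counts over both tables (20 upstream) and a count above 0 in both tables. Calls were made at a log2 ratio of 0.3219 and at 2-fold with an interval that excluded 0; the mean per listed nucleosome has no interval, and its calls rest on the fold alone. Pairs were mutual nearest midpoints within 50 bp with at least 10 counts over both. Shares of called features were computed over all measured genes or pairs. Coordinates are as the tables give them.

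The members and lists were chosen with earlier results of these data known. Genes were given in full by rule: RPN4; the 4 highest and 4 lowest sums of the window; the 2 highest and 2 lowest upstream, over the ORF, by the mean and within each particle; the 3 highest and 3 lowest WT levels; members on chromosome XII; the 3 highest and 3 lowest pairs; and the 2 highest and 2 lowest of each pathway list. The start nucleosome and the genes given for it were chosen after values were seen, as were other genes given outside the rule. All 47 pathway names matched. Alternatives covered the scaling, the window, the assignment rule, overlapping and neighbouring nucleosomes, matching, the count minimum and, added after seeing the data, listed width and chromosome XII. The scripts were tested on simulated data. Python 3.11.15, numpy 2.4.6, pandas 2.3.3, scipy 1.17.1 and matplotlib 3.10.9 were used.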

Additional observations from a re-analysis of the deposited data

How the results depend on the processing

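No paired analysis was possible because each genotype has a single count column for both replicates, which also means that no replicate could be left out. Overlapping nucleosomes changed the most: without them the window median became 0.014, the core median 0.22, and of 28 genes left 10 were called higher and 10 lower, where 33.04% of all genes were higher and 36.8% lower. The median for the window was −0.017 per listed base pair. Upstream it was −0.39 with nucleosomes in other ORFs left out. Over the ORF it was −0.13 when an overlap of at least 1 bp sufficed, −0.12 without overlapping nucleosomes and −0.11 with matched nucleosomes only. The core median was −0.067 by the mean and −0.028 per listed base pair, and the regulatory median was 0.022 when an overlap of at least 1 bp sufficed. At 0.32, 2 genes were higher by the mean (9.03% of all genes) and 2 per listed base pair (9.94%). The number called lower was 1 with a total that left out chromosome XII (9.05% of all genes), 2 when centred on the chromosome median (9.81%), 1 by the mean (4.87%, intervals required), 7 without nucleosomes in other ORFs (12.4%) and 0 per listed base pair (3.65%). PUP1 changed sign, to 0.077 by the mean and 0.11 per listed base pair. In all, 266 of 391 values of single genes moved by less than the distance from the value to the end of its counting interval, and 123 moved further with the same sign or without a call. The start nucleosome median ran from −0.28 to −0.17 under the 6 alternatives tried, which were all chosen after seeing the data, and 5 genes were called lower among 20 pairs of equal width, where 6.89% of such pairs of protein-coding genes were. Why these values moved was not tested. Each table lists its own nucleosomes, so a sum depends on how many were listed and a mean on which were. The spread between replicates cannot be had from these tables.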
